A study of Mus musculus with 6 samples.

Results

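The skeletal muscle genes described here are 10 genes of contractile and energy-supplying proteins of striated muscle: Acta1, Ckm, Mylpf, Tnnt3, Tnni2, Tnnc2, Myh4, Mb, Actn3 and Pvalb. They were taken by symbol from a table of 55481 mouse genes, and each symbol had 1 row there. The table holds bulk polyA RNA sequencing of cell populations isolated from mouse squamous cell carcinomas of the skin, which were raised with DMBA, a mutagen, and TPA, a promoter of tumour growth. Cells with high Itga6, the integrin alpha 6 chain, and with CD80, a co-stimulatory ligand, are named tumour stem-like cells by the submitters (here Itga6hi CD80pos), and cells with low Itga6 and without CD80 are named differentiated cancer cells (here Itga6low CD80neg). Both groups had 2 libraries, both came from tumours raised in the same way, and the Itga6hi CD80neg group of the labels was not analysed here. The labels give no strain, age, other sort marker or lineage reporter. Nor do they tie a replicate to an animal or a pool, so a p-value measures only the spread between these libraries, which may be technical. The 10 genes were selected on results of these same libraries, their TPM in Itga6hi CD80pos against Itga6low CD80neg. Their levels are therefore given as a description, with no test.

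Skeletal muscle fibres contract when myosin motors of the thick filament pull on actin of the thin filament, and troponin opens the thin filament when calcium is released. Fast and slow fibres use different genes for many of these parts, and Myh4 marks the fast fibres called type IIb. Mouse skin lies on a thin sheet of skeletal muscle, the panniculus carnosus, and keratinocytes themselves have no sarcomeres.

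RefSeq promoter windows on GRCm38.p6 were at hand for 7 of the 10 genes (Acta1, Tnnc2, Ckm, Mylpf, Myh4, Mb and Pvalb) and not for Tnnt3, Tnni2 and Actn3. The 250 bases before the annotated start are shown for 5 of them: Acta1, Tnnc2 and Ckm, which were at or near 0 TPM in Itga6hi CD80pos, Mylpf, which was measured in both groups, and Myh4, the fast heavy chain. The windows are chr8:123894776-123895025 (minus strand) for Acta1, chr2:164779735-164779984 (minus strand) for Tnnc2, chr7:19410844-19411093 (plus strand) for Ckm, chr7:127211358-127211607 (plus strand) for Mylpf and chr11:67237562-67237811 (plus strand) for Myh4, each written 5′ to 3′ on the gene's strand. Capitals mark matches on either strand to CANNTG, the E-box read by myogenic helix-loop-helix factors, to TATAAA, to the CArG box of serum response factor and to the MEF2 box.
Acta1 promoter: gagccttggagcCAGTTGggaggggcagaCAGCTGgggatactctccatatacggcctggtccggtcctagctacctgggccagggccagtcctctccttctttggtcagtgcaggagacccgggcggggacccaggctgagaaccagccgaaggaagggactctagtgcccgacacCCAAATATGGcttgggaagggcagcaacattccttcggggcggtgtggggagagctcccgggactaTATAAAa
Tnnc2 promoter: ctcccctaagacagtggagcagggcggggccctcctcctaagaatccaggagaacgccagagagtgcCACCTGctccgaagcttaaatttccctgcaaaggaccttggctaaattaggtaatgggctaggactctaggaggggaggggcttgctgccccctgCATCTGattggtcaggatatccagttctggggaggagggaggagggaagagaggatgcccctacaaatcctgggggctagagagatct
Ckm promoter: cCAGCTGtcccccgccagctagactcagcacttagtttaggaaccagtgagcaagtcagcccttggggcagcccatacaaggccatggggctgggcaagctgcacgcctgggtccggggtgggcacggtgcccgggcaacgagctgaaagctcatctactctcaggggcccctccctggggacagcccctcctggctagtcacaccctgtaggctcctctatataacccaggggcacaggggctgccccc
Mylpf promoter: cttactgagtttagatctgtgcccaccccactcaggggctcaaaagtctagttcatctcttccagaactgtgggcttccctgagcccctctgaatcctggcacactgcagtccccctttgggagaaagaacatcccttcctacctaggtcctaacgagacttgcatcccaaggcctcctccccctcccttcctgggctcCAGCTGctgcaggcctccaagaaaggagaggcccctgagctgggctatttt
Myh4 promoter: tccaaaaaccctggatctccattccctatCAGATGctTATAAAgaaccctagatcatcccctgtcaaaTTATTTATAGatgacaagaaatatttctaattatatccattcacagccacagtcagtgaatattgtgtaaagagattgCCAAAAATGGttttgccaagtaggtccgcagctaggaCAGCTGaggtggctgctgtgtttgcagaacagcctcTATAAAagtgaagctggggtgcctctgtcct
The E-box was found in the window of each of the 5 genes shown. Over all 10 windows of the 7 genes, 9 held an E-box, 2 held TATAAA, 2 held a CArG box and 2 held a MEF2 box. Mb and Pvalb had more than 1 window each, and some Mb windows overlap and share E-boxes, so the 10 are not separate sequences. Counted by gene, all 7 held an E-box in at least 1 window. Of 32851 mouse windows of the same length, 66.2% held an E-box, 12.4% held TATAAA, 1.47% held a CArG box and 2.92% held a MEF2 box. Acta1 held a CArG box that begins 73 bases before the start, and Myh4 held a CArG box and a MEF2 box, whose letters overlap a TATAAA match. These matches are letters in a window and were not measured as bound sites.

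Values are TPM, read shares scaled by transcript length and to a fixed total, so that levels can be compared between genes of 1 library. TPM carry no read totals, and depth is therefore unknown for all 4 libraries. Haemoglobin genes took 0.0185% and 0.00621% of the total in the Itga6hi CD80pos libraries, against 70.9% and 50.4% in the Itga6low CD80neg libraries. The median difference of 13474 tested genes was 1.27 on the log2(TPM + 1) scale, higher in Itga6hi CD80pos. The differences of the 10 genes below are also given relative to that shift, that is, with this median subtracted. That is no rescaling of the libraries, and for genes near 0 TPM the added 1 TPM damps such a shift. Limma, a linear model with a shared estimate of spread, called 7686 genes higher and 1277 lower in Itga6hi CD80pos at an adjusted p under 0.05. The split became 839 higher and 1829 lower with median-of-ratios scaling, 1608 and 1480 with quantile normalization, and 1039 and 1458 with haemoglobin left out of the total. Itga6 itself stood at 178 and 339 TPM in Itga6hi CD80pos, against 1.50 and 1.65 TPM in Itga6low CD80neg, and Cd80 at 6.24 and 1.89 TPM in Itga6hi CD80pos, against 0.642 and 0.563 TPM in Itga6low CD80neg.

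Of the thin filament genes, all 4 listed were low in Itga6hi CD80pos. Acta1, the skeletal muscle alpha actin (chromosome 8, 123891769 to 123894751, minus strand, GRCm38), stood at 0.0302 and 0 TPM in Itga6hi CD80pos, against 40.2 and 13.8 TPM in Itga6low CD80neg. Its difference in mean log2(TPM + 1), Itga6hi CD80pos minus Itga6low CD80neg, was -4.60 ± 0.74 (SE from the spread within both pairs of libraries), or -5.87 relative to the median of all tested genes. Acta1 was the most abundant of the 10 genes in the first Itga6low CD80neg library and the second most abundant in the other. Reads that Acta1 shares with the near-identical actins Acta2, Actg2 and Actc1 were not resolved here.

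The 3 fast troponin subunits stood close to each other in Itga6low CD80neg. Tnnt3, the subunit that holds troponin on tropomyosin (chromosome 7, 142498836 to 142516009, plus strand), was at 0 and 0.365 TPM in Itga6hi CD80pos, against 23.4 and 14.0 TPM in Itga6low CD80neg. Tnnc2, the calcium-binding subunit (chromosome 2, 164777161 to 164779967, minus strand), stood at 0.150 and 0 TPM in Itga6hi CD80pos, against 24.3 and 11.4 TPM in Itga6low CD80neg. Both were at or near 0 in each Itga6hi CD80pos library, and their groups did not overlap. Tnni2, the inhibitory subunit (chromosome 7, 142441808 to 142444410, plus strand), had 2.02 and 3.01 TPM in Itga6hi CD80pos, against 14.2 and 8.86 TPM in Itga6low CD80neg, so it was low but present in both Itga6hi CD80pos libraries. The log2 differences were -4.03 ± 0.42 for Tnnt3, -4.05 ± 0.53 for Tnnc2 and -1.81 ± 0.37 for Tnni2 (SE, n = 2 libraries a group). Relative to all tested genes they were -5.30 for Tnnt3, -5.31 for Tnnc2 and -3.08 for Tnni2. Tnni2 and Tnnt3 lie 54426 bases apart on chromosome 7.

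The thick filament and Z disc genes reached different levels. Myh4, the type IIb myosin heavy chain (chromosome 11, 67238029 to 67260446, plus strand), reached 0 and 0.0318 TPM in Itga6hi CD80pos, against 1.00 and 0.480 TPM in Itga6low CD80neg, the lowest level of the 10 genes in both Itga6low CD80neg libraries. It missed the filter for testing, at least 1 TPM in at least 2 libraries, which the other 9 passed. Mylpf, the regulatory light chain that sits on fast heavy chains (chromosome 7, 127208890 to 127214298, plus strand), measured 5.88 and 10.3 TPM in Itga6hi CD80pos, against 16.5 and 10.9 TPM in Itga6low CD80neg. The highest Itga6hi CD80pos library and the lowest Itga6low CD80neg library of Mylpf nearly met, and the log2 difference was -0.71 ± 0.46 (SE), or -1.98 relative to all tested genes. Actn3, the alpha actinin that crosslinks actin at the Z disc of fast fibres (chromosome 19, 4861216 to 4877909, minus strand), stood at 0.0140 and 0.0754 TPM in Itga6hi CD80pos, against 2.87 and 1.50 TPM in Itga6low CD80neg. Its log2 difference was -1.57 ± 0.32 and that of Myh4 was -0.76 ± 0.22 (SE), or -2.84 and -2.03 relative to all tested genes. With the libraries rescaled, Actn3 was at -2.17 (median-of-ratios), -1.97 (quantile) and -2.66 (haemoglobin left out). Myh4 was at -1.16, -0.83 and -1.54 under the same scalings, so the subtracted median overstates its difference. The added 1 TPM understates differences of genes this low, and reads that Myh4 shares with its paralogs Myh1 and Myh2 were not resolved here.

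The genes of energy supply, oxygen storage and calcium buffering followed the same order of groups. Ckm, the muscle creatine kinase that regenerates ATP (chromosome 7, 19404776 to 19422841, plus strand), gave 0.0339 and 0.114 TPM in Itga6hi CD80pos, against 18.5 and 7.69 TPM in Itga6low CD80neg. Pvalb, the calcium buffer parvalbumin of fast fibres (chromosome 15, 78191114 to 78206400, minus strand), stood at 0 and 0.0392 TPM in Itga6hi CD80pos, against 3.95 and 5.13 TPM in Itga6low CD80neg. Both were near 0 in Itga6hi CD80pos. Mb, the oxygen-binding myoglobin of oxidative fibres (chromosome 15, 77015487 to 77050670, minus strand), stood at 1.06 and 0.608 TPM in Itga6hi CD80pos, against 2.82 and 1.63 TPM in Itga6low CD80neg, so its groups lay closer together. The log2 differences were -3.60 ± 0.58 for Ckm, -2.43 ± 0.16 for Pvalb and -0.80 ± 0.32 for Mb (SE, n = 2 a group). Relative to all tested genes they were -4.87 for Ckm, -3.70 for Pvalb and -2.07 for Mb. With the libraries rescaled, Mb was at -1.69 (median-of-ratios), -1.23 (quantile) and -1.90 (haemoglobin left out).

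**Figure D1:**
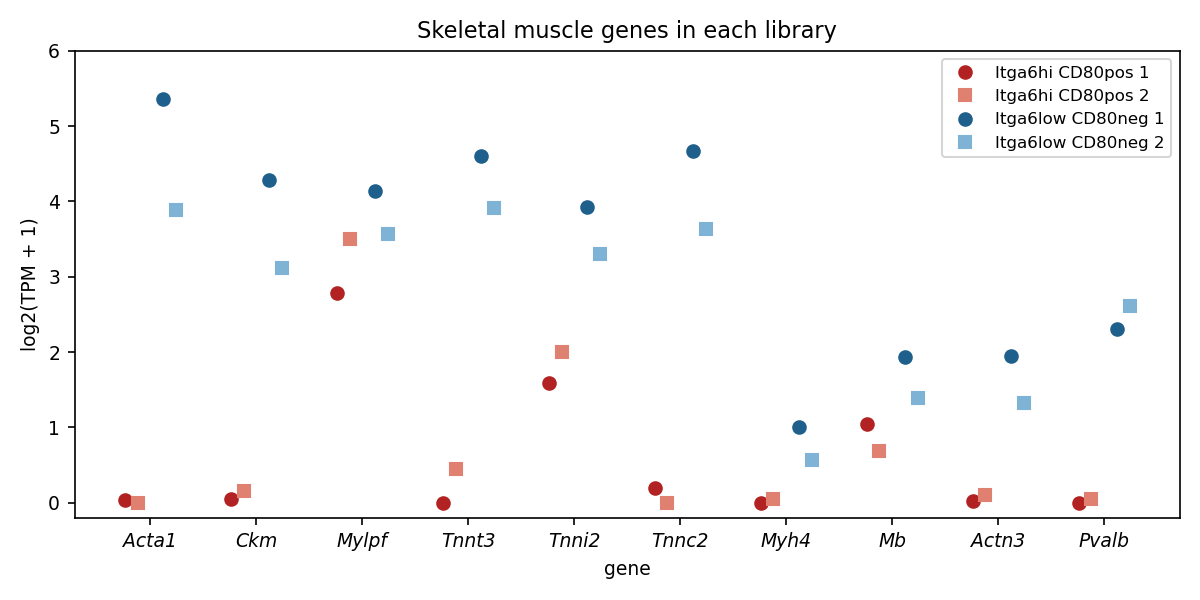
Each point is the log2(TPM + 1) of 1 library for 1 of the 10 genes, with Itga6hi CD80pos in red and Itga6low CD80neg in blue, circles for replicate 1 and squares for replicate 2. The red points of Mylpf, Tnni2 and Mb stand above those of the other genes, and the 2 groups come closest for Mylpf.

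In all 10 genes both Itga6hi CD80pos libraries lay below both Itga6low CD80neg libraries, an order seen in 12.9% of all tested genes. The genes were listed with this contrast known, so nothing is read from that count. In bulk samples, fewer cells of a type and less RNA per cell cannot be told apart. The 10 genes summed to 9.19 and 14.5 TPM in Itga6hi CD80pos, against 148 and 75.3 TPM in Itga6low CD80neg. Without haemoglobin in the total, they took 0.000919% and 0.00145% of TPM in Itga6hi CD80pos, against 0.0508% and 0.0152% in Itga6low CD80neg. The median log2 difference of the 10 genes was -2.12, which is -3.39 relative to the median of all tested genes.

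The make-up of that sum differed between the groups. Mylpf and Tnni2 together made up 86.0% and 91.5% of it in Itga6hi CD80pos, against 20.8% and 26.2% in Itga6low CD80neg. Mylpf ranked first, Tnni2 next and Mb after it among the 10 genes in both Itga6hi CD80pos libraries. Without these 3, picked after their values were seen, the other 7 summed to 0.228 and 0.626 TPM in Itga6hi CD80pos, against 114 and 53.9 TPM in Itga6low CD80neg, and each stood under 0.5 TPM in both Itga6hi CD80pos libraries. Syt8, a synaptotagmin gene on the same strand, lies 1412 bases from Tnni2. Syt8 stood at 8.98 and 19.2 TPM in Itga6hi CD80pos, against 0.154 and 0.827 TPM in Itga6low CD80neg, and its part in the Tnni2 values was not tested.

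Annotated genes overlap 5 of the 10 genes, and whether strand was used in quantification is not given in the sources used here. The overlapping gene with the highest level was Ube2c, a mitotic ubiquitin-conjugating enzyme on the strand opposite Tnnc2, at 132 and 124 TPM in Itga6hi CD80pos, against 16.8 and 20.7 TPM in Itga6low CD80neg. Its groups run in the direction opposite to those of Tnnc2. Reads of overlapping genes were not separated here.

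The 2 Itga6low CD80neg libraries differed from each other. In 9 of the 10 genes the first of them held the higher TPM, with ratios of the first to the second from 1.52 in Mylpf to 2.92 in Acta1, and Pvalb was the exception at 0.771. Over all tested genes, 35.7% were higher in that first library. The first library also held the larger haemoglobin share, and 8 of 10 fibroblast markers and 6 of 7 red blood cell markers were higher in it, but 2 of 10 keratinocyte markers. The part of these other cell types in the muscle gene levels was not tested.

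To compare fast and slow fibre genes, each fast gene was set beside its slow partner in 10 pairs. In the Itga6low CD80neg libraries the fast gene stood above its slow partner in both libraries in 8 of 10 pairs. Among them were all 6 pairs whose fast gene is one of the 10 genes. Those 6 fast genes were selected on TPM of these same libraries, so nothing is read from their order. Of the pairs with another fast gene, Myl1 and Mybpc2 stood above their partners in both libraries, and Atp2a1 and Casq1 did not. Myh7, the slow heavy chain, was listed at 0 and 0 TPM in Itga6hi CD80pos and at 0 and 0.0045 TPM in Itga6low CD80neg. Tnnt1, the slow troponin T, stood at 0.110 and 0 TPM in Itga6hi CD80pos, against 1.38 and 0 TPM in Itga6low CD80neg, and Tnnc1, the troponin C of slow and cardiac muscle, at 0.685 and 0.669 TPM in Itga6hi CD80pos, against 0.592 and 1.40 TPM in Itga6low CD80neg. These slow genes stayed under 2 TPM in all 4 libraries. Myl2, the slow regulatory light chain, reached at most 0.489 TPM in any library, Myl3, the slow essential light chain, 0.564 TPM, Actn2, the other sarcomeric alpha actinin, 0.396 TPM, and Mybpc1, the slow myosin binding protein C, 0.632 TPM. Its fast counterpart Mybpc2 stood at 0 and 0 TPM in Itga6hi CD80pos, against 1.18 and 0.561 TPM in Itga6low CD80neg.

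The pairs that broke this order were those of calcium storage. Atp2a2, the calcium pump of slow and cardiac muscle that many other cells also use, stood at 167 and 155 TPM in Itga6hi CD80pos, against 31.4 and 19.8 TPM in Itga6low CD80neg, above the fast pump Atp2a1 in all 4 libraries. Limma called Atp2a2 higher in Itga6hi CD80pos (2.65, adjusted p = 0.00639). The call was lost under the other scalings, with a difference as small as 1.09 (adjusted p up to 0.141). Casq2, the calcium store protein of cardiac and slow muscle, stood at 7.52 and 14.5 TPM in Itga6hi CD80pos, against 0.406 and 3.28 TPM in Itga6low CD80neg, while the fast Casq1 stood at 0.0475 and 0.0536 TPM in Itga6hi CD80pos, against 0.371 and 0.601 TPM in Itga6low CD80neg. In Itga6hi CD80pos the slow gene was the higher one in both libraries in 4 pairs, and the fast gene in 1, Mylpf over Myl2. The slow troponin I, Tnni1, stood at 3.22 and 2.51 TPM there, beside 2.02 and 3.01 TPM of the fast Tnni2, against 0.277 and 0 TPM of Tnni1 in Itga6low CD80neg.

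**Figure D2:**
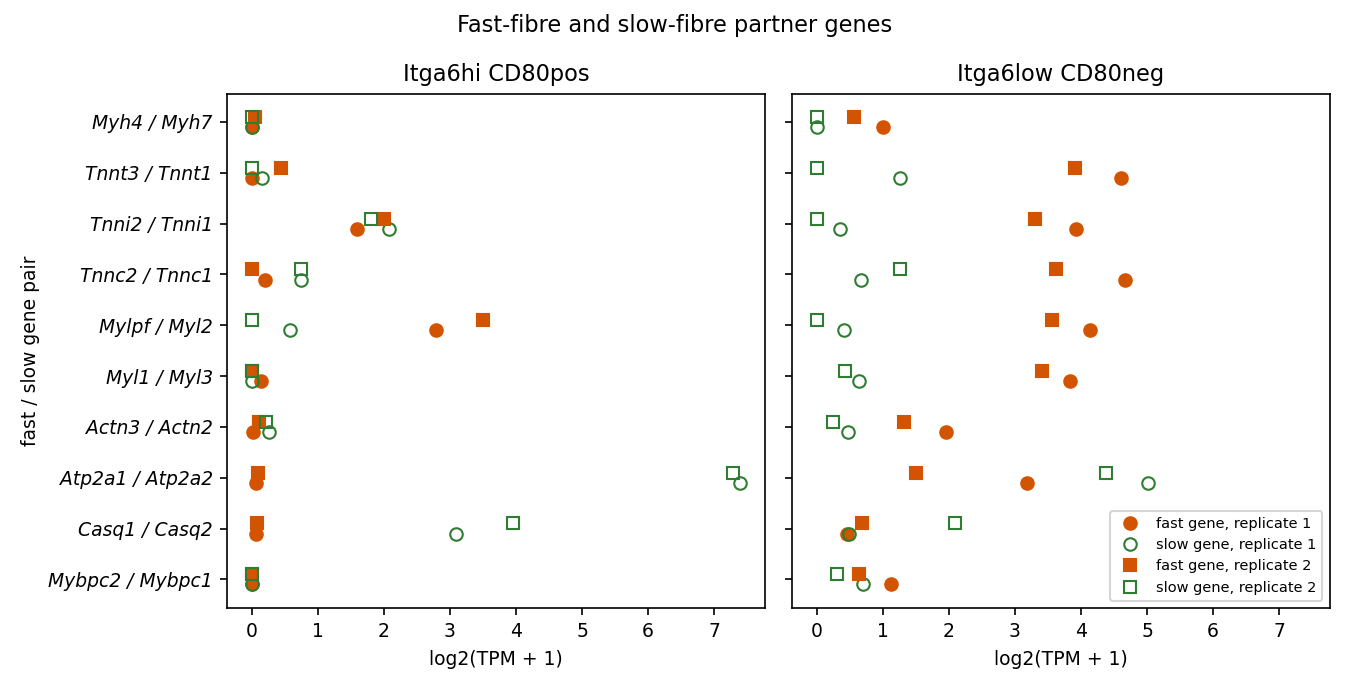
Each row is a pair of partner genes, with log2(TPM + 1) on the horizontal axis, filled orange for the fast gene, open green for the slow gene, circles for replicate 1 and squares for replicate 2. In Itga6low CD80neg the orange points lie to the right in 8 of 10 pairs, and in Itga6hi CD80pos most points other than Atp2a2, Casq2, Mylpf, Tnni1 and Tnni2 lie near 0.

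Other genes of skeletal muscle, 103 in 7 lists by role, were low in all 4 libraries for the most part: 61 stayed under 1 TPM in every library. Of the 103, 28 passed the filter. Limma called 15 of these lower and 5 higher in Itga6hi CD80pos, and 8 did not pass, beside 9.48% of all tested genes called lower and 57.0% called higher. A gene that passes the filter only through Itga6low CD80neg had to be lower in Itga6hi CD80pos. Each gene called lower, other than Cryab, passed in that way. Tnni1 and Slc2a4, called higher, passed only through Itga6hi CD80pos. The filter thus fixed the direction of those calls, and their p-values below are given as a description. These counts describe the genes and support no statement on the lists. Over all 103 genes, tested or not, 52 had both Itga6hi CD80pos libraries below both Itga6low CD80neg libraries, and 13 had them above. Their median log2 difference was -0.17. The shares of all tested genes were 12.9% below and 73.5% above. Most of the 103 genes missed the filter, so those shares are not a matched background, and none was computed over untested genes. Of the lower calls 11 held under each of 4 scalings, the deposited values included, and of the higher calls 0 did. All scalings used the genes passed by the same filter, so the 11 against 0 is no measure of stability. Without either Itga6hi CD80pos library limma called 0 of these genes in either direction, with 15 lower at an unadjusted p under 0.05 in each case, 3 higher without replicate 1 and 2 higher without replicate 2.

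Myl1, the fast essential light chain and a partner of Mylpf, was lower, at 0.102 and 0 TPM in Itga6hi CD80pos, against 13.2 and 9.61 TPM in Itga6low CD80neg (log2 fold change -3.55 ± 0.30 SE, adjusted p = 0.00311). Here and below, SE is that of limma, with its shared estimate of spread. It is not comparable with the SE of the 10 genes, which used each gene's own spread. Myom1, the M band crosslinker myomesin, was the other thick filament gene of 15 that could be tested, and was lower too (-1.19 ± 0.27, adjusted p = 0.0153). Of 12 thin filament genes outside the 10, 3 were tested and Nebl did not pass. Tnni1 (1.77 ± 0.29, adjusted p = 0.00728) and Tpm2, a tropomyosin also made outside muscle (1.71 ± 0.52, adjusted p = 0.0328), were higher. Tpm2 stood at 392 and 409 TPM in Itga6hi CD80pos, against 86.8 and 171 TPM in Itga6low CD80neg, and its difference shrank to as little as 0.14 under the other scalings (adjusted p up to 0.787). The call of Tnni1 held under quantile normalization (1.51, adjusted p = 0.0265) and was lost in the other two, at 1.46 (adjusted p = 0.0901) with haemoglobin left out and at 1.07 (adjusted p = 0.0847) with median-of-ratios scaling.

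Of 18 Z disc genes 4 passed the filter and were called lower, but Des, Flnc and Myoz1 passed it only through Itga6low CD80neg and so had to be lower. Cryab, a small heat shock protein of the Z disc that other tissues also make, stood at 1.18 and 1.96 TPM in Itga6hi CD80pos, against 27.6 and 27.3 TPM in Itga6low CD80neg (-3.49 ± 0.31 SE, adjusted p = 0.00337). Des, the intermediate filament desmin of all muscle types, stood at 0.118 and 0.186 TPM in Itga6hi CD80pos, against 6.92 and 2.65 TPM in Itga6low CD80neg (-2.22 ± 0.43, adjusted p = 0.0101), and Flnc, the muscle filamin, at 0.0426 and 0.0135 TPM in Itga6hi CD80pos, against 4.41 and 1.19 TPM in Itga6low CD80neg (-1.74 ± 0.47, adjusted p = 0.0240). Cryab and Des were called under all 4 scalings. The Flnc call was lost under the 3 other scalings (adjusted p up to 0.0850), although its difference was larger there, as far as -2.85. Myoz1, a Z disc protein of fast fibres picked after its values were seen, had a difference of -1.60, and as far as -2.68 under the other scalings, where its call held with median-of-ratios scaling (adjusted p = 0.0499) and not in the other two (adjusted p up to 0.0619).

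Calcium handling and energy genes were split. Of 17 calcium genes 7 were tested: 4 were lower and 2 higher. Atp2a1, the fast calcium pump, stood at 0.0459 and 0.0697 TPM in Itga6hi CD80pos, against 8.09 and 1.84 TPM in Itga6low CD80neg (-2.26 ± 0.57, adjusted p = 0.0200), and under the other scalings its difference was larger, as far as -3.46, with adjusted p up to 0.0698. Jph2, a junctophilin that ties the surface membrane to the calcium store, was lower (-1.97 ± 0.26, adjusted p = 0.00548), and Casq2 was higher (2.23 ± 0.62, adjusted p = 0.0261), with a difference as small as 1.11 under the other scalings (adjusted p up to 0.301). Trdn, triadin of the calcium release complex, was lower at 0 and 0 TPM in Itga6hi CD80pos, against 1.07 and 1.02 TPM in Itga6low CD80neg. Cav3, the muscle caveolin, was lower too, and Srl, sarcalumenin, was higher, a call lost under other scalings (adjusted p up to 0.849). These 3 were picked after their values were seen, and Cacnb1 did not pass. Of 17 energy genes 8 were tested. Pygm, the muscle glycogen phosphorylase (-1.49 ± 0.34, adjusted p = 0.0154), and Cox8b, a cytochrome oxidase subunit of muscle (-1.23 ± 0.31, adjusted p = 0.0190), were lower, and Slc2a4, the insulin-regulated glucose transporter (1.85 ± 0.29, adjusted p = 0.00699), was higher. Under the other scalings the Cox8b difference was larger, as far as -2.24, and its call held with median-of-ratios scaling (adjusted p = 0.0424) but not in the other two (adjusted p up to 0.0552). The Slc2a4 difference was smaller, as little as 0.94, and its call held under quantile normalization (adjusted p = 0.0314) but not in the other two (adjusted p up to 0.118). Ak1, an adenylate kinase with the highest level of that list, did not pass (adjusted p = 0.154), with 42.3 and 42.6 TPM in Itga6hi CD80pos and 26.3 and 30.2 TPM in Itga6low CD80neg.

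Genes of the muscle membrane and of myogenic control were mostly under 1 TPM in every library, 9 of 12 and 8 of 12. Of 12 membrane and endplate genes 2 were tested, and Chrnb1, an acetylcholine receptor subunit, was lower (-0.82 ± 0.25, adjusted p = 0.0358). Dmd, dystrophin, stood at 0.376 and 2.71 TPM in Itga6hi CD80pos, against 3.77 and 1.60 TPM in Itga6low CD80neg, with overlapping groups (adjusted p = 0.355). Of 12 myogenic and satellite cell genes 2 were tested and both were lower: Chodl, chondrolectin (-2.13 ± 0.42, adjusted p = 0.0106), and Mef2c, a transcription factor of muscle and of several other cell types (-1.61 ± 0.36, adjusted p = 0.0142). The myogenic factor Myod1, picked after its values were seen, was listed at 0 in all 4 libraries, as was Vgll2.

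**Figure D3:**
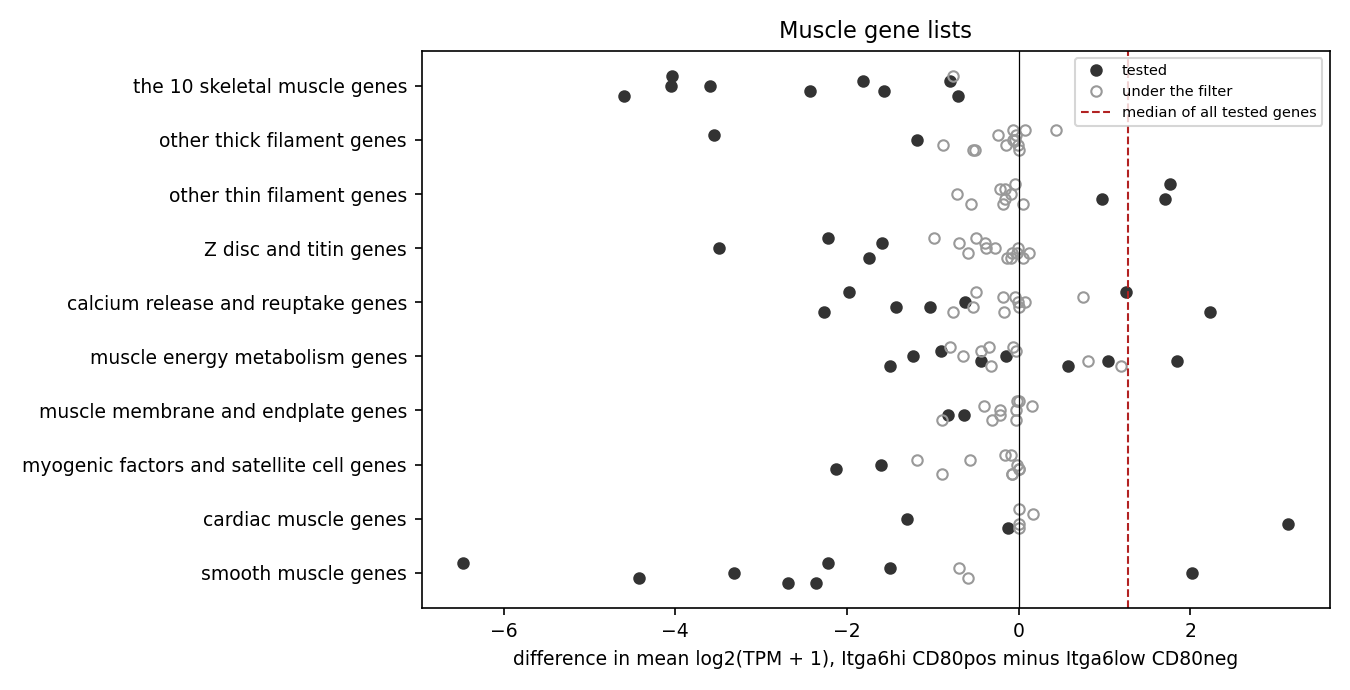
Each point is 1 gene, at its difference in mean log2(TPM + 1), Itga6hi CD80pos minus Itga6low CD80neg, filled where it passed the filter and open where it did not. The 10 skeletal muscle genes all lie left of 0, and the dashed line marks the median of all tested genes at 1.27. Filled points lie only left of 0 in the thick filament, Z disc, membrane and myogenic lists, and only right in the thin filament list. The calcium, energy, cardiac and smooth muscle lists have filled points on both sides.

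Markers of fibroblasts, red blood cells and smooth muscle were also lower in Itga6hi CD80pos, beside 9.48% of all tested genes called lower. The 10 fibroblast markers summed to 13.0 and 17.3 TPM in Itga6hi CD80pos, against 9580 and 5899 TPM in Itga6low CD80neg, and 10 of 10 were called lower, led in level by the collagen Col3a1 at 2.22 and 2.56 TPM in Itga6hi CD80pos, against 2963 and 2123 TPM in Itga6low CD80neg. The 7 red blood cell markers summed to 185 and 62.5 TPM in Itga6hi CD80pos, against 711100 and 504900 TPM in Itga6low CD80neg, with 7 of 7 called lower and Hbb-bs, an adult beta globin, standing highest. The 10 smooth muscle genes summed to 87.2 and 85.3 TPM in Itga6hi CD80pos, against 361 and 546 TPM in Itga6low CD80neg, with 7 of 8 tested called lower and 1 higher. Tagln, an actin-binding protein of smooth muscle and activated fibroblasts, was the highest of these at 1.36 and 1.46 TPM in Itga6hi CD80pos, against 160 and 284 TPM in Itga6low CD80neg. The 7 cardiac muscle genes summed to 19.6 and 40.1 TPM in Itga6hi CD80pos, against 5.22 and 7.51 TPM in Itga6low CD80neg. Of 3 tested, 1 was called lower and 1 higher. Tnnt2, the cardiac troponin T, stood highest, at 17.4 and 38.1 TPM in Itga6hi CD80pos, against 1.21 and 3.17 TPM in Itga6low CD80neg. Limma called it higher (3.14 ± 0.52 SE, adjusted p = 0.00739). The call was lost under quantile normalization and median-of-ratios scaling (adjusted p up to 0.0661).

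Markers of the labelled epithelial cells ran the opposite way. The 10 keratinocyte markers summed to 47410 and 47520 TPM in Itga6hi CD80pos, against 2050 and 5737 TPM in Itga6low CD80neg. Of these, 9 of 10 were called higher, beside 57.0% of all tested genes, led in level by the basal keratin Krt14. The Krt14 call held under quantile normalization (adjusted p = 0.0143). It was lost with median-of-ratios scaling and with haemoglobin left out (adjusted p up to 0.207). Adipocyte markers, of which Adipoq was listed at 0 in all 4 libraries, summed to 1.11 and 0.549 TPM in Itga6hi CD80pos, against 1.03 and 0.426 TPM in Itga6low CD80neg, with Cidec the highest. Macrophage markers summed to 14.5 and 11.6 TPM in Itga6hi CD80pos, against 12.4 and 18.5 TPM in Itga6low CD80neg, with Cd14 the highest and 1 of 3 tested called lower. Endothelial markers summed to 15.8 and 21.0 TPM in Itga6hi CD80pos, against 7.48 and 4.76 TPM in Itga6low CD80neg, with Egfl7 the highest and 2 of 3 tested called higher, and Schwann and nerve markers to 11.6 and 17.1 TPM in Itga6hi CD80pos, against 75.4 and 60.4 TPM in Itga6low CD80neg, with Pmp22 the highest, 2 of 3 tested called lower and 1 higher. The part of fibroblast, red blood cell and smooth muscle RNA in the levels of the 10 genes was not tested.

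**Figure D4:**
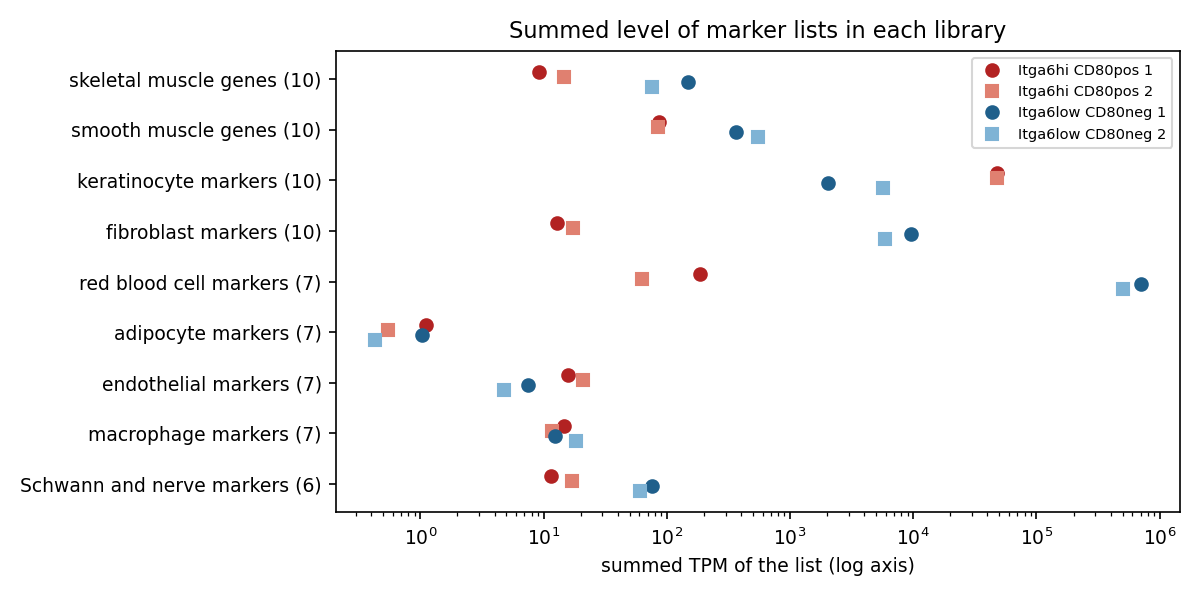
Each point is the summed TPM of a marker list in 1 library on a log axis, with Itga6hi CD80pos in red and Itga6low CD80neg in blue, and the number of genes in brackets. The skeletal muscle genes, at 148 and 75.3 TPM in Itga6low CD80neg, stand below the fibroblast and red blood cell lists there and above the adipocyte, endothelial and macrophage lists.

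Genes outside the muscle lists came close to the profile of the 10 genes across the 4 libraries. Each gene's log2(TPM + 1) was centred on its mean over the libraries and compared with the median profile of the 10 genes by Euclidean distance, among the 9442 genes whose higher group averaged 5 TPM or more and whose symbol is no predicted model. The 6 closest were Ramp2, a receptor activity-modifying protein, at a distance of 0.13, Serpinh1, a collagen chaperone, at 0.15, P3h1, a collagen-modifying hydroxylase, at 0.19, Lims2, an adhesion adaptor, at 0.20, Hpgd, a prostaglandin-degrading enzyme, at 0.22, and Tacc1, a coiled-coil protein, at 0.22. Ramp2 stood at 2.04 and 2.89 TPM in Itga6hi CD80pos, against 16.1 and 13.0 TPM in Itga6low CD80neg, and Serpinh1 at 91.1 and 110.3 TPM in Itga6hi CD80pos, against 438 and 420 TPM in Itga6low CD80neg. The 10 genes themselves lay between 0.42 (Tnni2) and 2.65 (Acta1) from their own median profile. The 4 libraries fall into 2 groups, so close genes share the size of the group difference.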

How the data were processed

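The authors deposited TPM per gene, 1 column for each of 4 libraries. Per the submitters' processing notes, kallisto 0.44.0 and the build mm10 were used. The annotation, the summing to genes and the use of strand are not given in the sources used here. Gene positions came from GENCODE M21 on GRCm38, which held 55144 of the 55481 identifiers.

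The test covered the 13474 genes that reached 1 TPM in 2 or more of the 4 libraries. On log2(TPM + 1), the model was fitted in R 4.3.3 by limma 3.58.1 (lmFit, then eBayes with a trend), and a gene was called at a Benjamini-Hochberg adjusted p under 0.05, counting both directions and all tested genes. Alternatives were other pseudocounts, filters and scalings, leaving out each library, and a replicate block. TPM hold no depth, so no detection limit is given. The procedure was tested on simulated data.

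The 10 genes, the muscle lists, the fast and slow pairs and the marker lists were chosen with earlier results of these data known. Named genes were the 10, both genes of each pair, up to 3 called genes by fold change and the highest-level gene of each muscle list, the highest-level gene of each marker list, both sort markers and the 6 closest profiles.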

Additional observations from a re-analysis of the deposited data

How the results depend on the processing

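The groups of the 10 genes do not overlap, so most alternatives could not turn a sign, and the signs are no measure of stability. The median difference of the 10 genes, -2.12 as reported, became -4.62 with a pseudocount of 0.1, -1.02 with a pseudocount of 5, -3.08 with median-of-ratios scaling, -2.98 with quantile normalization and -3.40 with haemoglobin left out, and lay between -2.24 and -2.01 when 1 library was left out. Higher calls over all genes numbered 4564 with no filter on low values, 839 with median-of-ratios scaling, 1608 with quantile normalization and 1039 without haemoglobin. Lower calls numbered 613 with a mean of at least 5 TPM. Of the other 103 muscle genes, 2 were lower and 3 higher with a mean of at least 5 TPM, where fewer genes were tested. With no filter and with quantile normalization 2 were higher, and with median-of-ratios scaling and without haemoglobin 0 were higher by limma, 2 in each at an unadjusted p under 0.05. Leaving out 1 library gave 0 to 8227 higher and 0 to 1237 lower calls over all genes, and 0 to 16 lower and 0 to 6 higher calls among the muscle genes. The zeros over all genes came without Itga6hi CD80pos replicate 1, where limma had 4442 higher and 1033 lower at an unadjusted p under 0.05. Those among the muscle genes came without either Itga6hi CD80pos replicate, with 15 lower in each case and 3 or 2 higher at an unadjusted p under 0.05. Leaving out replicate 2 of that group gave 353 higher and 174 lower calls. The cause was not tested.

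The labels give both groups the replicate numbers 1 and 2 but no shared animal or day. With the replicate number as a block, limma called 8044 genes higher and 1452 lower, and 16 muscle genes lower and 7 higher. The deviations of same-numbered libraries had a correlation of 0.11 over the tested genes. With the unknown depth, a gene listed at 0 cannot be called absent.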
